A study of Mus musculus with 2 samples.

Results

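The 8 genes described here make, carry or sense retinoic acid: Rdh10, Aldh1a1, Aldh1a2, Aldh1a3, Crabp2, Rara, Rarb and Rarg. They were taken by symbol from the gene list shared by both deposited matrices, where all 8 were found among 32285 genes, and no measured value entered that choice. Retinoic acid is made from vitamin A in steps. Retinol dehydrogenases such as Rdh10 turn retinol into retinaldehyde, and aldehyde dehydrogenases of the Aldh1a family oxidise retinaldehyde to retinoic acid. Crabp2 is a small binding protein that carries retinoic acid to the nucleus, where the receptors Rara, Rarb and Rarg, each paired with a retinoid X receptor, sit on DNA and switch target genes. In many organs the enzymes and the receptors lie in different cell layers, and retinoid signals are known to act on the growth and differentiation of prostate epithelium.

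The study profiled dissociated prostate from male wild-type mice (strain C57BL6) by single-cell RNA sequencing on the 10x Genomics Chromium platform, which tags the 3′ end of each captured RNA with a molecular barcode, so that a unique molecular identifier (UMI) is counted once however often it is copied. One library came from the ventral prostate lobes (kit version 2) and the other from the proximal and periurethral region, the tissue near the urethra (kit version 3). The age and the number of mice behind each library are not given in the sources used here. With 1 library a group there is no replicate check, no test between groups was made, and in differences between the libraries the region and the kit cannot be told apart.

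After filtering, 1988 ventral cells (median 25759 UMIs) and 3705 proximal cells (median 15260 UMIs) remained, and the libraries shared 0 barcodes. Clusters were called after the marker genes they resembled, with the 8 genes and the wider retinoid pathway kept out of the clustering. This gave 1695 secretory luminal-like, 97 proximal luminal-like and 141 basal-like cells in the ventral library. The corresponding proximal numbers were 707, 701 and 908, together with 523 fibroblast-like cells, which stand for the stroma here because no ventral cluster was fibroblast-like. Fibroblast-like cells had 6 of 7 fibroblast markers in at least 25% of cells. Ventral classes also carried RNA of other types. Ventral basal-like cells had 6 of 7 basal but 1 of 7 fibroblast markers in that share of cells, although the summed fibroblast markers came to 5314 CPM and the basal ones to 4648 CPM. Ventral proximal luminal-like cells had 7 of 8 proximal luminal and 5 of 8 secretory markers, at sums of 4034 and 206800 CPM. The doublet caller marked 0.193% of cells and so has not worked, and most doublets are likely still in the data. Among ventral cells, 39 of the 97 proximal luminal-like cells had Sbp and Spink1, abundant ventral secretory genes, at over 5% of UMIs, and the main results on this class are also given without them.

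Levels are UMIs summed over the cells of a class and scaled to counts per 1000000 (CPM), with exact 95% Poisson intervals, and ratios carry exact 95% intervals conditional on the total count. Both cover counting error only, and the cells of a class share 1 library. Levels of different genes are not compared, because 3′ counts carry no per-length scale.

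Rdh10 was higher in the proximal luminal-like and basal-like than in the secretory luminal-like class of both libraries. The gene lies on chromosome 1 (16105774 to 16133734, plus strand, GRCm38, the assembly also called mm10). In the proximal library, proximal luminal-like cells held 97.7 CPM (93.5 to 102.0), basal-like cells 90.7 CPM (85.5 to 96.2) and fibroblast-like cells 72.7 CPM (65.7 to 80.2), against 10.8 CPM (9.74 to 12.0) for secretory luminal-like cells. Ventral proximal luminal-like cells held 17.8 CPM (11.7 to 25.9), basal-like cells 34.5 CPM (22.3 to 50.9) and secretory luminal-like cells 3.755 CPM (3.22 to 4.36). Secretory cells were thus lowest of the epithelial classes on both sides, and the intervals did not overlap. The ratio to secretory cells was 9.03 (8.08 to 10.1) for proximal luminal-like and 8.39 (7.45 to 9.46) for basal-like cells of the proximal library. The same ventral ratios were 4.74 (3.04 to 7.15) and 9.18 (5.78 to 14.0). No order of proximal luminal-like and basal-like cells should be read from the proximal library, where their ratio of 1.08 (1.00 to 1.16) changed direction under other settings.

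The share of cells with an Rdh10 UMI was compared at equal depth. After every cell was thinned to 2000 UMIs, Rdh10 was found in 16.6% (13.9% to 19.6%) of proximal luminal-like, 15.3% (13.04% to 17.9%) of basal-like and 13.5% (10.6% to 16.9%) of fibroblast-like cells of the proximal library. It was found in 1.47% (0.708% to 2.69%) of the secretory cells there. Without thinning the shares were 74.0%, 55.6%, 42.8% and 30.98%, at median depths of 21138, 12037, 10293 and 47734 UMIs. Macrophage-like cells, taken as a reference for free RNA without a check that they lack the gene, gave 2.63% (0.320% to 9.19%) after thinning at a median depth of 11922 UMIs. The share in secretory cells lay below this reference and is not read as expression, while those of the other 3 classes lay above it. Endothelial-like cells stood between, with 10.0% (3.76% to 20.5%) of 60 thinned cells and 34.7 CPM (23.0 to 50.1). Macrophage-like cells held 6.10 CPM (2.24 to 13.3), so the secretory level of the proximal library also overlapped background. Ventral macrophage-like cells held 5.78 CPM (0.146 to 32.2) from 1 UMI, an interval that overlapped those of all 3 ventral classes. T or NK-like cells there held 2.71 CPM (0.0686 to 15.1), below the basal-like interval but overlapping the other 2. None of the 27 thinned ventral macrophage-like cells had an Rdh10 UMI, which allows a share of up to 11.1%, against 8.76% (4.61% to 14.8%) of basal-like, 5.155% (1.695% to 11.6%) of proximal luminal-like and 0.949% of secretory cells. Ventral Rdh10 was thus not clearly separated from background at this depth.

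**Figure D1:**
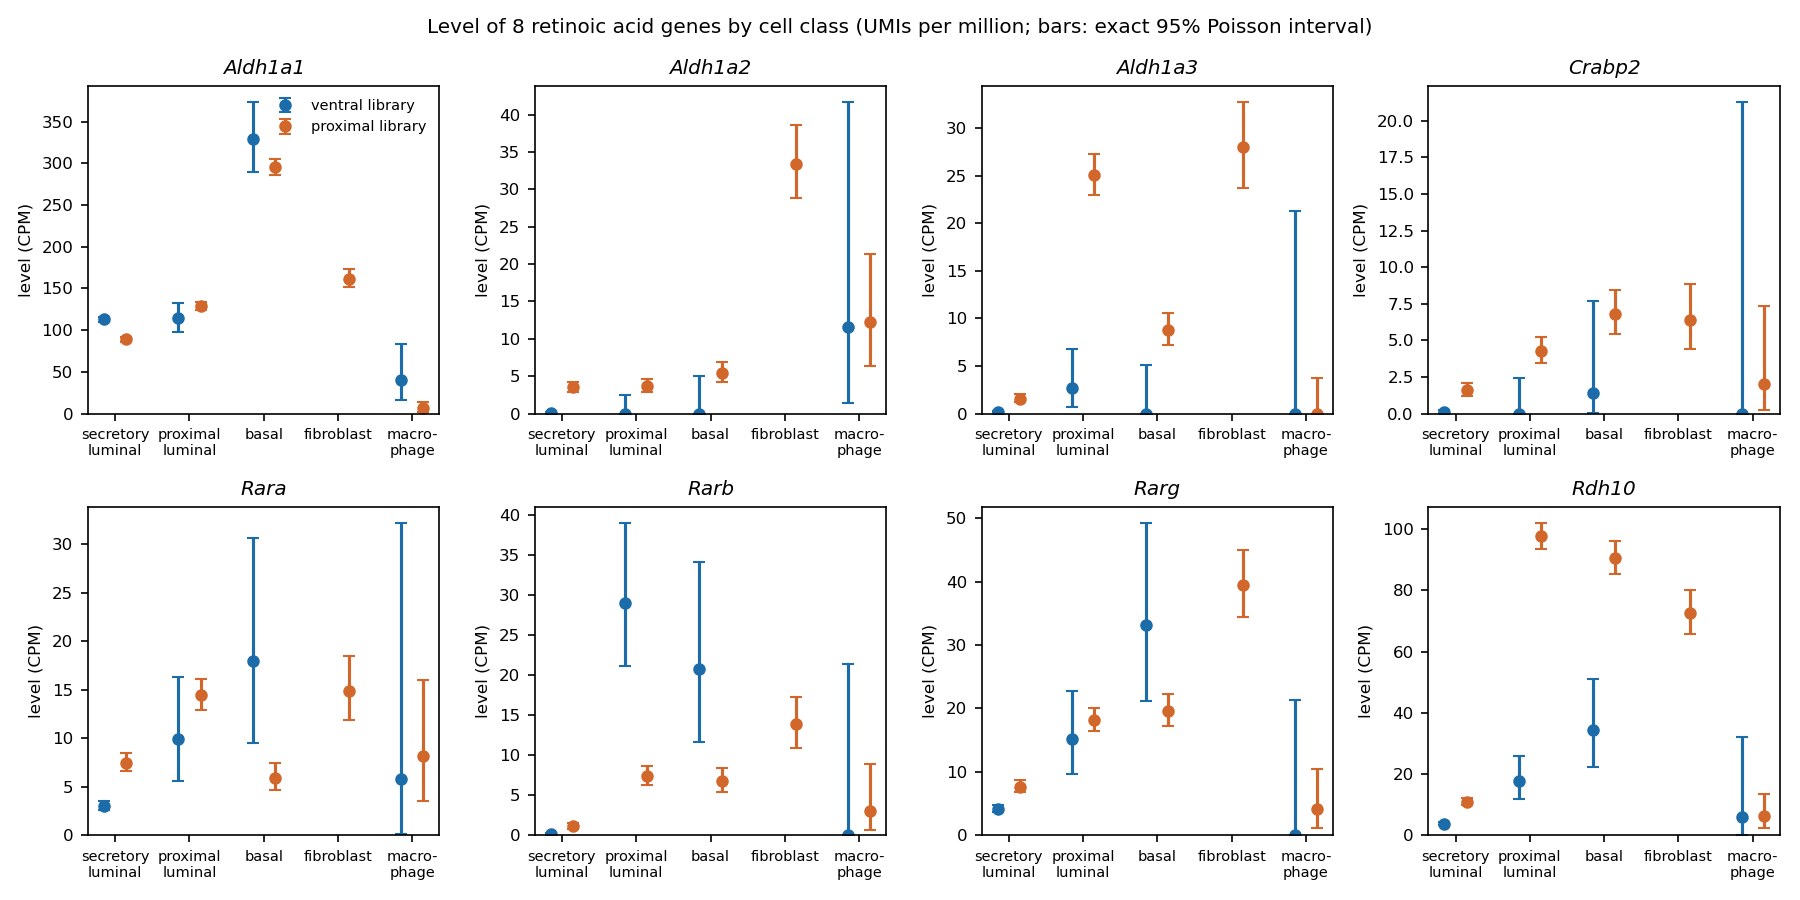
Level of each gene (vertical axes, CPM, each panel with its own scale) in 5 cell classes of the ventral and the proximal library; points are UMIs summed over a class and bars exact 95% Poisson intervals. Rdh10 was low in secretory luminal-like cells of both libraries, Aldh1a1 was highest in basal-like cells, Aldh1a2 was highest in fibroblast-like cells (33.4 CPM), and Rarb in proximal luminal-like and basal-like cells was higher in the ventral than in the proximal library.

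The enzymes of the second step were spread over different classes. Aldh1a1 (chromosome 19, 20492715 to 20643465, plus strand, GRCm38), which also oxidises other aldehydes, was read in every epithelial class and was highest of them in basal-like cells. In the ventral library basal-like cells held 329.5 CPM (289.0 to 374.0), proximal luminal-like cells 114 CPM (97.8 to 132.5) and secretory luminal-like cells 113 CPM (109.7 to 116). The proximal library gave 295 CPM (285 to 305) for basal-like, 129 CPM (124 to 134) for proximal luminal-like, 89.1 CPM (85.9 to 92.3) for secretory and 162 CPM (151 to 173) for fibroblast-like cells. Basal-like over secretory cells gave 2.92 (2.56 to 3.33) for ventral and 3.31 (3.15 to 3.48) for proximal tissue, so this order was shared. Under other settings the log2 ratio ran from 0.61 to 2.77 for ventral and from 1.35 to 2.12 for proximal tissue. The direction thus held, but the size depended on the processing, most of all in ventral tissue. Ventral proximal luminal-like and secretory cells did not differ in Aldh1a1 beyond counting error, with a ratio of 1.01 (0.865 to 1.18). This reading depends on the processing. Under other settings the log2 ratio ran from -0.56 to 0.21, and 10 settings turned it negative. The level then ran from 112.5 to 223 CPM in secretory and from 101 to 151 CPM in proximal luminal-like cells.

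Ventral immune-like cells also had Aldh1a1 UMIs: T or NK-like cells held 94.8 CPM (66.0 to 132) and macrophage-like cells 40.4 CPM (16.3 to 83.3), the latter with 85.7% of 7 UMIs in 1 cell. The T or NK-like interval overlapped those of ventral proximal luminal-like and secretory cells, while the macrophage-like interval lay below both, and the basal-like interval lay above both references. Sbp and Spink1 made up 36.05% of the UMIs of these T or NK-like cells and 21.05% of those of the macrophage-like cells, against 45.8% in secretory cells, so these references also carried secretory RNA. Its part in their Aldh1a1 counts was not tested. After thinning, 4.17% (0.105% to 21.1%) of these T or NK-like cells had an Aldh1a1 UMI, against 18.1% (16.3% to 20.0%) of ventral secretory cells. Endothelial-like cells of the proximal library held 28.5 CPM (18.1 to 42.7) of Aldh1a1 and macrophage-like cells 6.10 CPM (2.24 to 13.3). In the thinned cells Aldh1a1 was found in 42.8% (39.5% to 46.1%) of proximal and 48.2% (39.6% to 56.9%) of ventral basal-like cells, against 1 of 76 proximal and 0 of 27 ventral macrophage-like cells. The unthinned shares were 89.3% and 72.3% in basal-like cells. These basal-like shares stood clear of background. Aldh1a7 is a paralog that lies next to Aldh1a1 on chromosome 19 (20692953 to 20727562, minus strand). Of the 91-base words in the last 500 bases of annotated Aldh1a1 transcripts, 0.608% also occurred in Aldh1a7, so few reads of this length from the 3′ end could fall on both genes.

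Aldh1a2 (chromosome 9, 71215789 to 71296243, plus strand, GRCm38), the main retinoic acid synthesising enzyme of many embryonic mesenchymes, stood out in the stroma. Fibroblast-like cells held 33.4 CPM (28.8 to 38.6), from 184 UMIs in 108 cells, and no cell gave more than 3.804% of them. The epithelium of the same library was lower: basal-like cells held 5.40 CPM (4.18 to 6.88), proximal luminal-like cells 3.70 CPM (2.93 to 4.61) and secretory luminal-like cells 3.55 CPM (2.94 to 4.24). The fibroblast-like level was 9.03 times (6.90 to 11.9) that of proximal luminal-like cells and 6.19 times (4.65 to 8.33) that of basal-like cells. Macrophage-like cells held 12.2 CPM (6.30 to 21.3), with 66.7% of their 12 UMIs in 1 cell, so the epithelial levels were not separated from background. Ventral Aldh1a2 was near the limit of detection: 5 UMIs in secretory cells, and 0 in proximal luminal-like cells and in basal-like cells, where a count of 0 allows up to 1.98 and 4.14 CPM.

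Aldh1a3 (chromosome 7, 66390890 to 66427517, minus strand, GRCm38), a close relative often found in epithelia, was shared by proximal luminal-like and fibroblast-like cells. Proximal levels of Aldh1a3 reached 25.01 CPM (22.9 to 27.2) and 28.0 CPM (23.7 to 32.8) in them, a ratio of fibroblast-like to proximal luminal-like cells of 1.12 (0.929 to 1.34). Basal-like cells held 8.76 CPM (7.18 to 10.6), secretory cells 1.55 CPM (1.16 to 2.03), endothelial-like cells 23.5 CPM (14.2 to 36.7) and macrophage-like cells 0 UMIs (which allows up to 3.05 CPM). Proximal luminal-like over secretory cells gave 16.1 (12.1 to 21.8), and over basal-like cells 2.86 (2.32 to 3.55). Ventral Aldh1a3 rested on 4 UMIs in proximal luminal-like cells, 5 in secretory cells and 0 in basal-like cells. The former level, 2.64 CPM (0.719 to 6.76), lay under the 17.3 CPM that a count of 0 in ventral macrophage-like cells allows. In the 58 proximal luminal-like cells with at most 5% of UMIs from Sbp and Spink1 the level was 6.22 CPM (1.69 to 15.9), also under that limit.

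**Figure D2:**
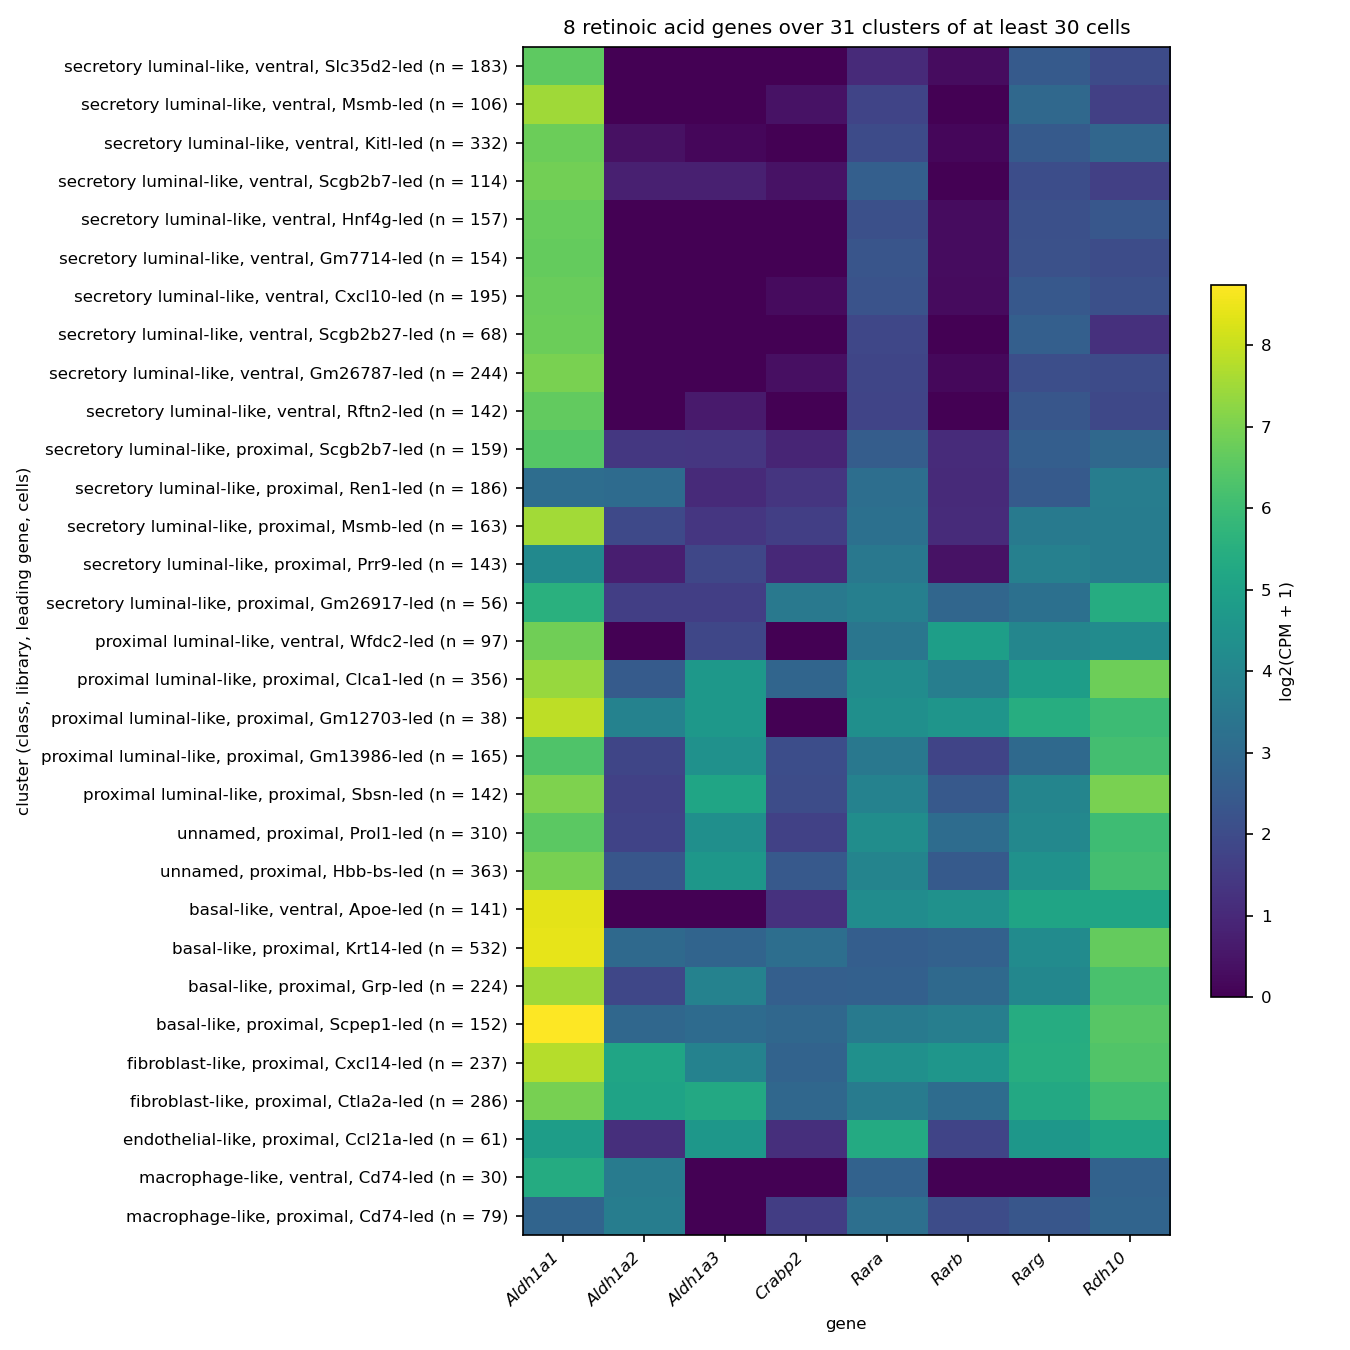
Level of the 8 genes (columns) as log2(CPM + 1), by colour, in the 31 clusters of at least 30 cells (rows, grouped by class and named by library and leading gene). Aldh1a1 was found across the epithelium but was low in the proximal secretory clusters led by Ren1 and Prr9, Aldh1a2 was highest in both fibroblast-like clusters, and within the proximal library Rdh10 and Aldh1a3 were higher in proximal luminal-like and fibroblast-like than in secretory clusters.

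Within the secretory class of the proximal library, Aldh1a1 spread over a wider range between clusters, as a fold, than between the epithelial classes. These clusters were chosen for description after their values were seen. The Msmb-led cluster of 163 cells held 185 CPM (177 to 193) and the Scgb2b7-led cluster of 159 cells 85.3 CPM (79.7 to 91.2). The Ren1-led cluster, whose leading genes also include Tgm4, held 7.63 CPM (5.98 to 9.59) over 186 cells, and the Prr9-led cluster, which also has Pate14 among its leading genes, held 16.6 CPM (12.3 to 21.9) over 143 cells. The Msmb-led cluster was thus 24.2-fold (19.2 to 31.03) above the Ren1-led and 11.1-fold (8.40 to 15.04) above the Prr9-led cluster. Between the Msmb-led and Ren1-led clusters no such difference held for Rdh10, at 11.9 and 12.0 CPM, a ratio of 0.990 (0.764 to 1.28), or for Rara, at a ratio of 1.04 (0.759 to 1.43). Rarg was 2.43-fold (1.71 to 3.51) higher in the Msmb-led cluster than in the Ren1-led cluster and Aldh1a2 was lower there, at a ratio of 0.385 (0.244 to 0.595). Neither held against the Prr9-led cluster, where the ratio was 0.861 (0.597 to 1.27) for Rarg and, from 2 UMIs in the Prr9-led cells, 4.23 (1.08 to 36.5) for Aldh1a2. Aldh1a7 showed the same direction as Aldh1a1, with 37.2 against 1.15 CPM.

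In ventral secretory cells the range was narrower. Their Msmb-led cluster of 106 cells held 181 CPM (166 to 198) of Aldh1a1, against 108 CPM over the other 1589 secretory cells, a ratio of 1.67 (1.52 to 1.83). The remaining 9 ventral secretory clusters lay between 95.4 and 125 CPM. No ventral secretory cluster approached the low levels of the Ren1-led and Prr9-led proximal clusters. Aldh1a7 did not differ beyond counting error between the ventral Msmb-led cluster and the others, at a ratio of 1.03 (0.849 to 1.24).

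**Figure D3:**
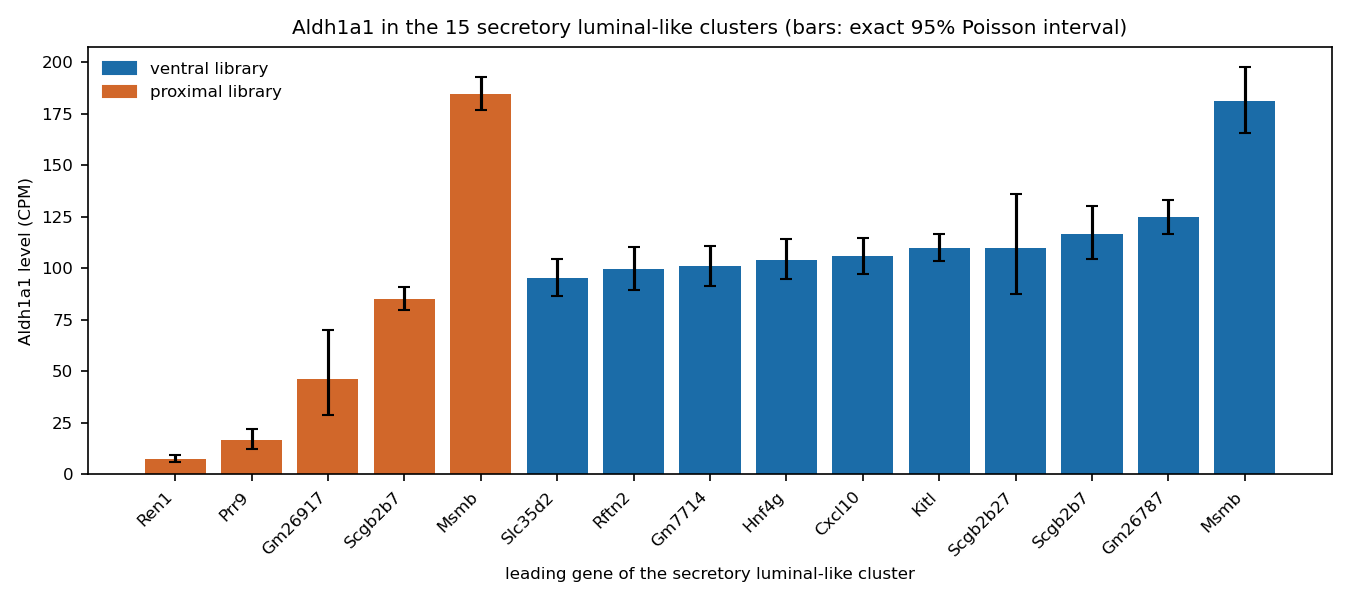
Aldh1a1 level (CPM, bars from 0, error bars exact 95% Poisson intervals) in the 5 proximal and 10 ventral secretory luminal-like clusters, named by leading gene. The proximal clusters spread from 7.63 to 185 CPM, while the ventral ones lay between 95.4 and 181 CPM, with the Msmb-led cluster highest in each library.

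The basal-like and fibroblast-like classes of the proximal library were also mixed, with smaller folds of Aldh1a1, again in clusters picked after values were seen. Among basal-like cells, Aldh1a1 was 428 CPM (394 to 464) in the Scpep1-led cluster, which has Trp63 and Dlk2 among its leading genes, and 340.1 CPM (326 to 354) in the Krt14-led cluster. It was 181 CPM (168 to 194) in the Grp-led cluster, whose leading genes include Ivl, a gene of differentiating squamous cells. The Scpep1-led over the Grp-led cluster gave 2.36 (2.12 to 2.64) for Aldh1a1 and 2.63 (1.81 to 3.81) for Rarg. Aldh1a3 ran the other way, at 13.5 CPM in the Grp-led and 6.03 CPM in the Krt14-led cluster, a ratio of Krt14-led to Grp-led cells of 0.446 (0.290 to 0.680). The Scpep1-led cluster, highest in Aldh1a1, held 7.35 CPM of Aldh1a3, a ratio to the Grp-led cluster of 0.544 (0.248 to 1.07) that did not differ from 1 beyond counting error.

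Fibroblast-like cells fell into a Cxcl14-led cluster of 237 cells, with Wif1 and Apod among its leading genes, and a Ctla2a-led cluster of 286 cells, with Col3a1 and Cxcl12. Aldh1a2 did not differ between them beyond counting error, at 34.2 and 33.0 CPM and a ratio of 1.04 (0.762 to 1.40). Aldh1a3 was lower in the Cxcl14-led cluster, 13.7 against 37.5 CPM, a ratio of 0.365 (0.236 to 0.547). Aldh1a1 was higher there, 219 against 124 CPM, a ratio of 1.76 (1.54 to 2.02). Rarb was also higher in the Cxcl14-led cluster, 23.2 against 7.56 CPM, a ratio of 3.07 (1.87 to 5.18). Rara was higher there as well, at a ratio of 1.74 (1.10 to 2.77), and Rdh10 slightly so, at 1.23 (1.01 to 1.51). Crabp2, Rarg and the paralog Aldh1a7 did not differ beyond counting error, the last at 1.19 (0.618 to 2.27).

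Crabp2 (chromosome 3, 87948666 to 87953376, plus strand, GRCm38) was low throughout. In the proximal library basal-like cells held 6.80 CPM (5.41 to 8.42), fibroblast-like cells 6.36 CPM (4.43 to 8.84), proximal luminal-like cells 4.26 CPM (3.43 to 5.23) and secretory luminal-like cells 1.61 CPM (1.21 to 2.10). Macrophage-like cells held 2.03 CPM (0.246 to 7.34) from 2 UMIs, an interval that reached the levels of all 4 classes, so Crabp2 was not separated from background. Ventral Crabp2 came to 5 UMIs in secretory, 1 in basal-like and 0 in proximal luminal-like cells. The secretory value, 0.109 CPM (0.0354 to 0.255), was above the limit of 3 UMIs, and the other 2 were under it.

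Of the receptors, Rara and Rarg were found in all epithelial and fibroblast-like classes, and Rarb had the widest ratios between classes. Rara (chromosome 11, 98927818 to 98974942, plus strand, GRCm38), the receptor with the widest tissue range, was read in the proximal library at 14.9 CPM (11.9 to 18.5) for fibroblast-like, 14.4 CPM (12.9 to 16.1) for proximal luminal-like, 7.44 CPM (6.56 to 8.42) for secretory and 5.895 CPM (4.61 to 7.42) for basal-like cells. Endothelial-like cells were higher, at 39.6 CPM (27.1 to 55.9), and macrophage-like cells held 8.13 CPM (3.51 to 16.01), an interval that overlapped those of the other 4 classes. Ventral basal-like cells held 17.9 CPM (9.54 to 30.65), proximal luminal-like cells 9.90 CPM (5.54 to 16.3) and secretory cells 3.01 CPM (2.53 to 3.56). The Rara level of ventral macrophage-like cells, 5.78 CPM (0.146 to 32.2) from 1 UMI, overlapped all 3 ventral classes, so none of these was set apart from background. Basal-like over secretory cells gave 5.95 (3.09 to 10.5) in the ventral and 0.792 (0.601 to 1.03) in the proximal library. The ventral basal-like class also carried 5314 CPM of summed fibroblast markers, and fibroblast-like cells held 2.53 times (1.82 to 3.52) the Rara level of proximal basal-like cells. The part of this signal in the ventral ratio was not tested.

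Rarg (chromosome 15, 102234938 to 102257517, minus strand, GRCm38), a receptor typical of skin and other stratified epithelia, was lower in secretory than in proximal luminal-like and basal-like cells of both libraries. In the proximal library fibroblast-like cells held 39.4 CPM (34.4 to 45.0), basal-like cells 19.6 CPM (17.2 to 22.2), proximal luminal-like cells 18.1 CPM (16.4 to 20.0) and secretory cells 7.65 CPM (6.75 to 8.64). Macrophage-like cells there held 4.06 CPM (1.11 to 10.4), which overlapped the secretory level. In the ventral library basal-like cells held 33.1 CPM (21.2 to 49.2), proximal luminal-like cells 15.2 CPM (9.62 to 22.8) and secretory cells 4.15 CPM (3.58 to 4.78). Ventral macrophage-like cells held 0 UMIs of Rarg, which allows up to 17.3 CPM, above the proximal luminal-like level. Fibroblast-like cells held 2.175 times (1.83 to 2.575) the level of proximal luminal-like cells, while the proximal luminal-like and basal-like cells of that library did not differ beyond counting error, at a ratio of 0.926 (0.786 to 1.09). Endothelial-like cells, at 23.5 CPM (14.2 to 36.7) of Rarg, lay within that range.

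**Figure D4:**
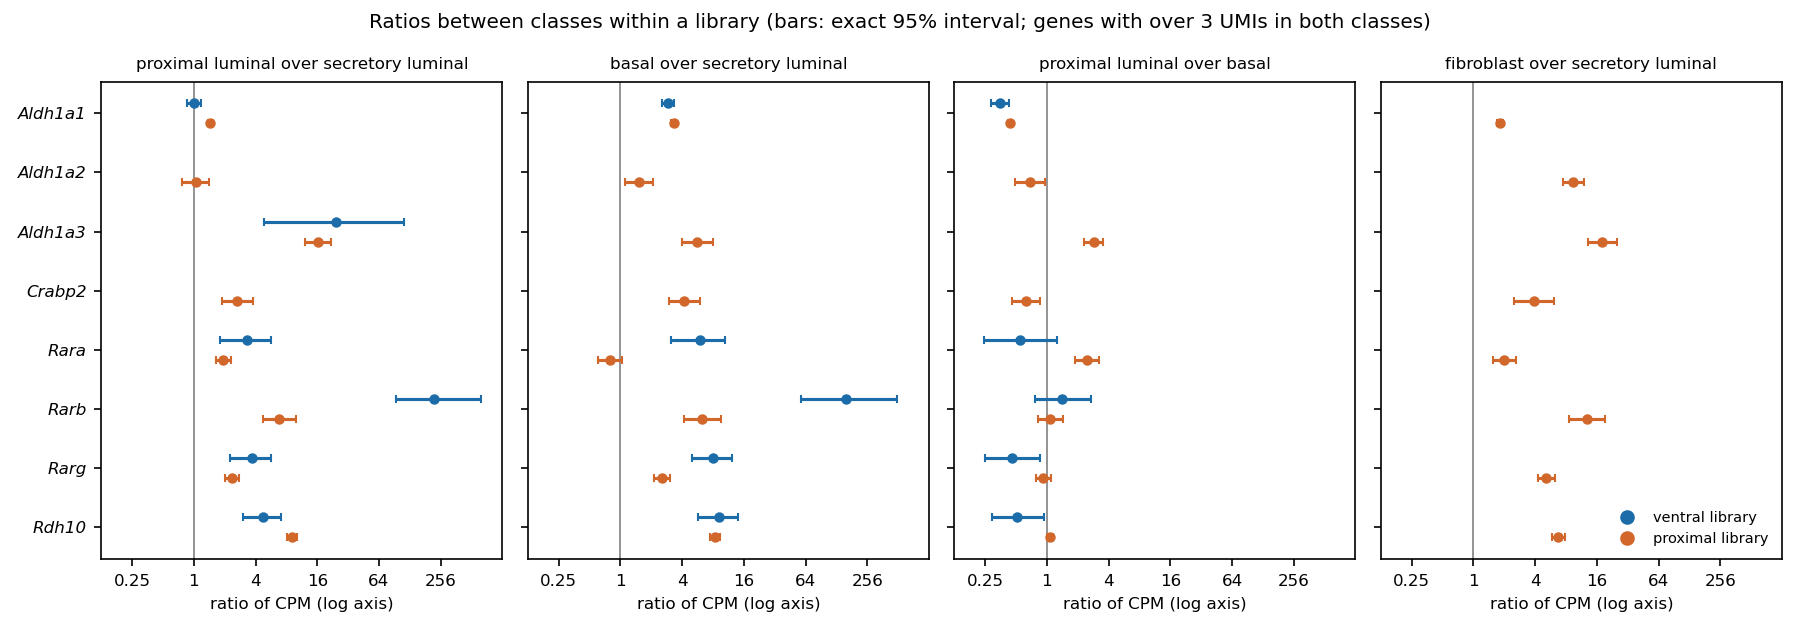
Ratio of CPM between classes (horizontal log axis) for each gene with over 3 UMIs in both classes, in the ventral and the proximal library; bars are exact 95% intervals and the grey line marks a ratio of 1. Rarb had the highest ratios to secretory cells in the ventral library (222 for proximal luminal-like and 158 for basal-like cells), and Aldh1a3 and Rdh10 the highest ratios of proximal luminal-like to secretory cells in the proximal library.

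Rarb (chromosome 14, 16430839 to 16819156, minus strand, GRCm38) is both a receptor and a textbook target of retinoic acid, through a response element near its start. A search of promoter sequences was made because this element ties the gene's own level to the pathway. The motif was a direct repeat of 6-letter half-sites (AGGTCA or AGTTCA or GGGTCA or GGTTCA) with a 5-base spacer, searched on both strands. RefSeq promoters (GRCm38.p6) were available for 5 of the 8 genes, Aldh1a1, Aldh1a2, Rara, Rarb and Rarg. Of these, Rarb had the motif, on the gene's own strand at chr14:16575507-16575535 (minus strand, with 6 flanking bases on each side; half-sites in capitals):
Rarb: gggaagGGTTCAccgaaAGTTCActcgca
The repeat runs from 53 to 37 bases before the RefSeq start, and GENCODE M21 places it in the first exon and 5′ untranslated region of other Rarb transcripts. In the wider pathway the retinoic acid degrading enzyme Cyp26a1 also had one, read on the strand opposite to the gene at chr19:37697770-37697798 (minus strand):
Cyp26a1: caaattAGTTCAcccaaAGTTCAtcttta
The motif occurred in 32 of 32851 RefSeq promoters of this length, 0.0974%. A match is a description of the letters and not evidence of binding. Spacers of 1 and 2 bases matched 0.222% and 0.268% of all promoters and none of the 5 genes, nor Cyp26a1. The pathway gene Bco1, an enzyme that splits carotenoids, had the match with a 1-base spacer.

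In the ventral library Rarb reached 29.0 CPM (21.1 to 39.0) from 44 UMIs in proximal luminal-like cells, and 20.7 CPM (11.6 to 34.1) from 15 UMIs in basal-like cells, against 0.131 CPM (0.0481 to 0.285, from 6 UMIs) in secretory cells. The ratios to secretory cells were 222 (94.1 to 636) and 158 (57.9 to 497). Macrophage-like cells held 0 UMIs, which at their depth allows up to 17.3 CPM. In the proximal library fibroblast-like cells held 13.8 CPM (10.9 to 17.3) of Rarb, proximal luminal-like cells 7.35 CPM (6.25 to 8.60), basal-like cells 6.80 CPM (5.41 to 8.42) and secretory cells 1.08 CPM (0.764 to 1.495). Macrophage-like cells there held 3.05 CPM (0.629 to 8.91), all 3 UMIs from 1 cell, an interval that overlapped the proximal luminal-like and basal-like levels. Other clusters were again picked after values were seen. Among proximal luminal-like clusters, the Clca1-led cluster, which has Meis2 among its leading genes, held 12.2 CPM of Rarb and the Gm13986-led cluster, with Krt23, held 2.46 CPM, a ratio of 4.98 (3.03 to 8.61). Rarg followed the same direction at 28.3 against 6.99 CPM, a ratio of 4.05 (3.003 to 5.55), as did Rdh10 more weakly, at 1.63 (1.46 to 1.81). Other members did so too: Aldh1a1 at 2.10 (1.905 to 2.31), Crabp2 at 1.91 (1.165 to 3.21), Aldh1a2 at 1.84 (1.05 to 3.32) and Rara at 1.76 (1.33 to 2.33). Aldh1a3 did not differ beyond counting error, at 1.18 (0.9535 to 1.46).

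A split chosen after values were seen showed where ventral Rarb lay. All 44 Rarb UMIs of the proximal luminal-like class came from the 58 cells with at most 5% of their UMIs from Sbp and Spink1, where 21 cells (36.2%) had at least 1. Their level was 68.4 CPM (49.7 to 91.8). The other 39 cells held 0 Rarb UMIs, which allows up to 3.44 CPM. The same split gave 35.75 CPM (22.7 to 53.65) and 4.585 CPM (1.25 to 11.7) for Rdh10, 29.5 CPM (17.8 to 46.1) and 4.585 CPM (1.25 to 11.7) for Rarg, and 18.65 CPM (9.64 to 32.6) and 3.44 CPM (0.709 to 10.05) for Rara. For Aldh1a1 the values were 101 CPM (78.0 to 129) and 124 CPM (102 to 149.5), with overlapping intervals. Without the 39 cells, Rarb in ventral proximal luminal-like over basal-like cells was 3.31 (1.81 to 6.40), against 1.40 (0.766 to 2.72) with them. The ratios to ventral secretory cells became 522 (222 to 1500) for Rarb, 9.52 (5.88 to 14.8) for Rdh10, 7.12 (4.19 to 11.4) for Rarg and 6.19 (3.12 to 11.2) for Rara. For Rdh10 the ratio to basal-like cells was then 1.04 (0.563 to 1.91), against 0.517 (0.289 to 0.929) with the 39 cells. The part of secretory RNA in these values was not tested.

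Exons of Rarb overlap those of Top2b, a broadly used topoisomerase gene on the opposite strand, and the strand setting of the counting is not given in the sources used here. Top2b held 14.9 CPM (13.8 to 16.1) in ventral secretory cells. Ventral proximal luminal-like cells held 35.6 CPM (26.8 to 46.5) of it and basal-like cells 46.9 CPM. In proximal tissue Top2b stood at 32.5 CPM for secretory, 53.9 CPM (50.8 to 57.1) for proximal luminal-like, 57.8 CPM for basal-like and 54.9 CPM for fibroblast-like cells. Top2b, like Rarb, was thus lower in secretory than in proximal luminal-like and basal-like cells of each library. The part of Top2b in the Rarb counts was not tested. The other gene with overlapping exons, Gm48162, had at most 4 UMIs in any class.

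Between the libraries, Rdh10 read higher in the proximal one in all 3 shared classes, while the direction of the Rarb ratio depended on the class. For Rarb the proximal over ventral ratio was 0.253 (0.180 to 0.363) in proximal luminal-like and 0.329 (0.188 to 0.613) in basal-like cells. In secretory cells Rarb was 8.28-fold (3.46 to 24.0) higher in the proximal library, from 6 ventral UMIs. Rdh10 gave 5.48 (3.76 to 8.34) for proximal luminal-like, 2.63 (1.77 to 4.09) for basal-like and 2.88 (2.40 to 3.47) for secretory cells. The median log2 ratio over all genes was 0.14 for proximal luminal-like and 0.16 for basal-like cells, on the scale of log2(CPM + 10), so the Rarb and Rdh10 differences of these classes lay on opposite sides of it. In secretory cells the median was 0.30, and on that scale Rdh10, at 0.60, lay above it. Rarb, at 0.13, cannot be placed against this median. Its 37 and 6 UMIs were under the minimum of 50 for the median, and at such low levels adding 10 CPM keeps any log2 ratio small. Without the 39 ventral cells rich in Sbp and Spink1, the log2 ratios of CPM in proximal luminal-like cells moved from -1.98 to -3.22 for Rarb and from 2.46 to 1.45 for Rdh10. Rarg and Rara changed direction, from 0.26 to -0.70 and from 0.54 to -0.37. With the libraries clustered together, which left 2 ventral cells in the class, Rdh10 also changed direction. Aldh1a3 in proximal luminal-like cells was 9.48-fold (3.68 to 34.9) higher in the proximal library, from 4 ventral UMIs. Rara and Rarg were lower in proximal basal-like cells, at 0.329 (0.181 to 0.648) and 0.592 (0.388 to 0.941). Aldh1a1 in these classes did not differ beyond counting error, at 1.13 (0.967 to 1.32) and 0.895 (0.785 to 1.03). Summed over the fibroblast markers, ventral basal-like cells held 5314 CPM, proximal basal-like cells 1341 CPM and fibroblast-like cells 9051 CPM. In each basal-like class 1 of 7 markers was found in at least 25% of cells. The part of this signal in the basal-like differences was not tested.

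To set the members beside all other genes, a gene was counted as apart where CPM + 10 differed at least 2-fold between 2 classes, among genes with at least 50 UMIs over both. This is a rule of size and not a test, and the pseudocount of 10 CPM holds back low genes. A gene that reaches 50 UMIs only through the class where it is high had to differ, so the counts of members and of pathway genes are descriptions and support nothing. In proximal luminal-like over secretory cells of the proximal library, 2 of 8 members were higher (Aldh1a3 and Rdh10) and 0 lower, where 9.97% and 4.9% of all genes were. Basal-like over secretory cells gave 2 of 8 higher there (Aldh1a1 and Rdh10) and 0 lower, where 12.4% and 6.97% of all genes were. In fibroblast-like over secretory cells 5 of 8 were higher (Aldh1a2, Aldh1a3, Rarb, Rarg and Rdh10) and 0 lower, against 17.4% and 6.11% of all genes. Of these, Rarb reached the minimum only through the fibroblast-like class (76 UMIs, against 37 in secretory cells). Fibroblast-like cells differed from proximal luminal-like cells in 1 of 8 (Aldh1a2, higher, against 13.0% of all genes higher and 7.23% lower). They differed from basal-like cells in 2 of 8 (Aldh1a2 and Aldh1a3, higher, against 11.2% higher and 5.55% lower). Proximal luminal-like over basal-like cells gave 1 of 8 lower (Aldh1a1, against 4.02%) and 0 higher (against 3.44%).

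Fewer members had the UMIs for this count in the ventral library. Of the 5 that did, 2 were higher in proximal luminal-like than in secretory cells (Rarb and Rdh10) and 0 lower, against 8.82% and 0.234% of all genes. Rarb reached the minimum only through the class where it was high (44 of 50 UMIs). This count of 2 became 0 with the highest doublet scores removed or cells named singly, 1 at Leiden resolution 2, without 5 secretory and the mitochondrial genes in the scaling or after subtraction of free RNA, and 4 without the 39 cells rich in Sbp and Spink1 or with a pseudocount of 1 CPM. Of 4 with enough UMIs, Aldh1a1, Rara, Rarg and Rdh10, all were higher in basal-like than in secretory cells, against 16.8% of all genes, with 3.89% lower. With 5 secretory and the mitochondrial genes left out of the scaling, 2 were higher, and the median log2 ratio of all genes went from 0.30 to -0.16. Of 3 with enough UMIs, 1 (Aldh1a1) had its proximal luminal-like level below the basal-like one, against 9.82%, and 0 were higher, against 14.5%. Between the libraries, 0 of 7 members were apart in secretory cells (8.58% of all genes higher and 0.376% lower). In proximal luminal-like cells 2 of 8 were higher (Aldh1a3 and Rdh10, against 12.5%) and 1 lower (Rarb, against 6.01%), and in basal-like cells 1 of 8 was higher (Rdh10, against 17.2%) and 0 lower (against 8.08%). Aldh1a3 and Rdh10, from 4 and 27 ventral UMIs in proximal luminal-like cells, and Rdh10, from 25 in basal-like cells, reached the minimum only through the proximal library, where they were high.

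Rdh10 and an Aldh1a enzyme were found in the same cells in up to 6.44% of a class at equal depth. After thinning of the proximal library, 6.44% (4.93% to 8.25%) of basal-like, 5.49% (3.92% to 7.46%) of proximal luminal-like and 4.37% (2.72% to 6.60%) of fibroblast-like cells had a UMI of Rdh10 and of at least 1 of Aldh1a1, Aldh1a2 and Aldh1a3. These shares were close to the product of the single shares, 6.70% for basal-like, 4.90% for proximal luminal-like and 4.58% for fibroblast-like cells, so detection of both in a cell was about as frequent as independent detection would give. Among secretory cells 1 of 679 had both, 0.147% (0.00373% to 0.818%), and among macrophage-like cells 0 of 76, which allows a share of up to 3.95%. Ventral shares, whose intervals all held the product of the single shares, were 5.11% (2.08% to 10.2%) in basal-like, 3.09% (0.642% to 8.77%) in proximal luminal-like and 0.0593% (0.00150% to 0.330%) in secretory cells. The 58 ventral proximal luminal-like cells low in Sbp and Spink1 gave 5.17% (1.08% to 14.4%), and ventral macrophage-like cells 0 of 27, which allows up to 11.1%. At least 1 of the receptors was found in 14.1% (11.2% to 17.6%) of fibroblast-like, 9.10% (7.07% to 11.5%) of proximal luminal-like, 5.67% (4.25% to 7.38%) of basal-like and 3.83% (2.52% to 5.56%) of secretory cells of the proximal library, and in 1.32% (0.0333% to 7.11%) of macrophage-like cells. Thinning left out 42 of 523 fibroblast-like cells and 28 of 707 secretory cells. These shares count detected UMIs at 1 shallow depth and not the cells that use the genes.

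The 673 proximal cells in clusters left unnamed scored highest for proximal luminal markers. Their clusters were led by Prol1 (310 cells) and Hbb-bs (363 cells). Rdh10 stood at 64.6 and 68.9 CPM in them, Aldh1a3 at 19.5 and 24.0 CPM, and Aldh1a1 at 91.1 and 122 CPM. All 3 genes lay within or next to the range of the 4 named proximal luminal-like clusters, 62.1 to 125 CPM for Rdh10, 20.6 to 34.1 CPM for Aldh1a3 and 78.9 to 233 CPM for Aldh1a1.

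The rest of the pathway was followed through a list of 51 further genes for retinoid uptake, conversion, breakdown, receptors, coregulators and known responses. In ventral proximal luminal-like over secretory cells, 8 of 30 measured genes were higher and 1 lower, against 8.82% and 0.234% of all genes. Among those higher were Meis2, a homeobox gene induced by retinoic acid (125 against 0.197 CPM), Adh1, an alcohol dehydrogenase that also uses retinol (310.1 against 46.9 CPM), Dhrs3, which reduces retinaldehyde back to retinol (195 against 26.7 CPM), and Meis1 (101 against 19.0 CPM). Crabp1, a cytoplasmic retinoic acid binding protein, was the gene that was lower, 91.1 against 258 CPM. Meis2 reached the minimum of 50 UMIs only through the proximal luminal-like class (190 UMIs, against 9). Without the 39 cells rich in Sbp and Spink1, 14 of 29 were higher and 2 lower, against 24.98% and 1.12% of all genes. Their levels were then 288 CPM for Meis2, 605 CPM for Adh1, 353 CPM for Dhrs3, 182 CPM for Meis1 and 9.33 CPM for Crabp1. The proximal library gave 4 of 38 higher and 3 lower, close to the 9.97% and 4.9% of all genes there, with Meis2 (154 against 3.19 CPM) and Adh1 (167 against 56.0 CPM) among those higher. Akr1b3 (71.3 against 683 CPM), Crabp1 (0.468 against 31.3 CPM) and Fabp5, a fatty acid binding protein that can carry retinoic acid (12.0 against 55.3 CPM), were lower.

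Tgm2 and Meis2 were higher in basal-like than in secretory cells of both libraries. Ventral secretory cells had 23 UMIs of Tgm2 and 9 of Meis2, and proximal ones 46 of Tgm2. In these cases the minimum of 50 UMIs was reached only through the basal-like class. Of 30 measured genes 7 were higher in the ventral library and 2 lower, against 16.8% and 3.89% of all genes, among them Tgm2, a transglutaminase induced by retinoic acid (726.5 against 0.502 CPM), Dhrs3 (237 against 26.7 CPM) and Meis2 (57.9 against 0.197 CPM), with Crabp1 lower (15.2 against 258 CPM). Of 37 measured proximal genes 7 were higher and 2 lower, against 12.4% and 6.97% of all genes, among them Meis2 (115 against 3.19 CPM) and Tgm2 (78.8 against 1.35 CPM) higher and Akr1b3 (78.6 against 683 CPM) lower. Fibroblast-like over secretory cells gave 9 of 38 higher and 2 lower, against 17.4% and 6.11% of all genes, so these shares lay near those of all genes. Rarres2, the secreted chemerin precursor (497 against 1.055 CPM), Meis2 (156 against 3.19 CPM) and Tgm2 (93.6 against 1.35 CPM) were among those with the largest differences. Rarres2 and Tgm2, with 36 and 46 secretory UMIs, reached the minimum only through the fibroblast-like class. Against basal-like cells, fibroblast-like cells were also higher in Stra6, the cell-surface retinol transporter, at 40.5 against 3.77 CPM.

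The response genes on the list include Rarb and were chosen with earlier results known. Some, such as Rarres2 and Tgm2, reached the minimum UMIs only through a class where they were high, so their counts and medians are descriptions. In the proximal library 7 of 12 measured were higher in fibroblast-like, 6 of 11 in basal-like and 3 of 11 in proximal luminal-like cells, with 0 lower than in secretory cells. Of all genes 17.4%, 12.4% and 9.97% were higher and 6.11%, 6.97% and 4.9% lower in these comparisons. The median log2 ratios of these genes, on the scale of log2(CPM + 10), were 1.09, 1.02 and 0.84, against 0.14, 0.06 and 0.05 over all genes. Cyp26a1, named here after its values were seen because of the repeat in its promoter, had at most 3 UMIs in any of these classes of either library. Between libraries, response genes went both ways. In proximal luminal-like cells 2 of 11 measured were higher in the proximal library and 2 lower, against 12.5% and 6.01% of all genes. In basal-like cells 1 of 10 was higher and 3 lower, against 17.2% and 8.08%. Dhrs3, lower in the proximal library like Rarb, held 49.1 against 195 CPM in proximal luminal-like cells (353 CPM without the 39 cells). Its basal-like levels were 49.9 and 237 CPM. Stra6 in proximal luminal-like cells (16.35 CPM against 0 UMIs) and Nrip1 in basal-like cells (281 against 75.8 CPM) ran the other way.

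**Figure D5:**
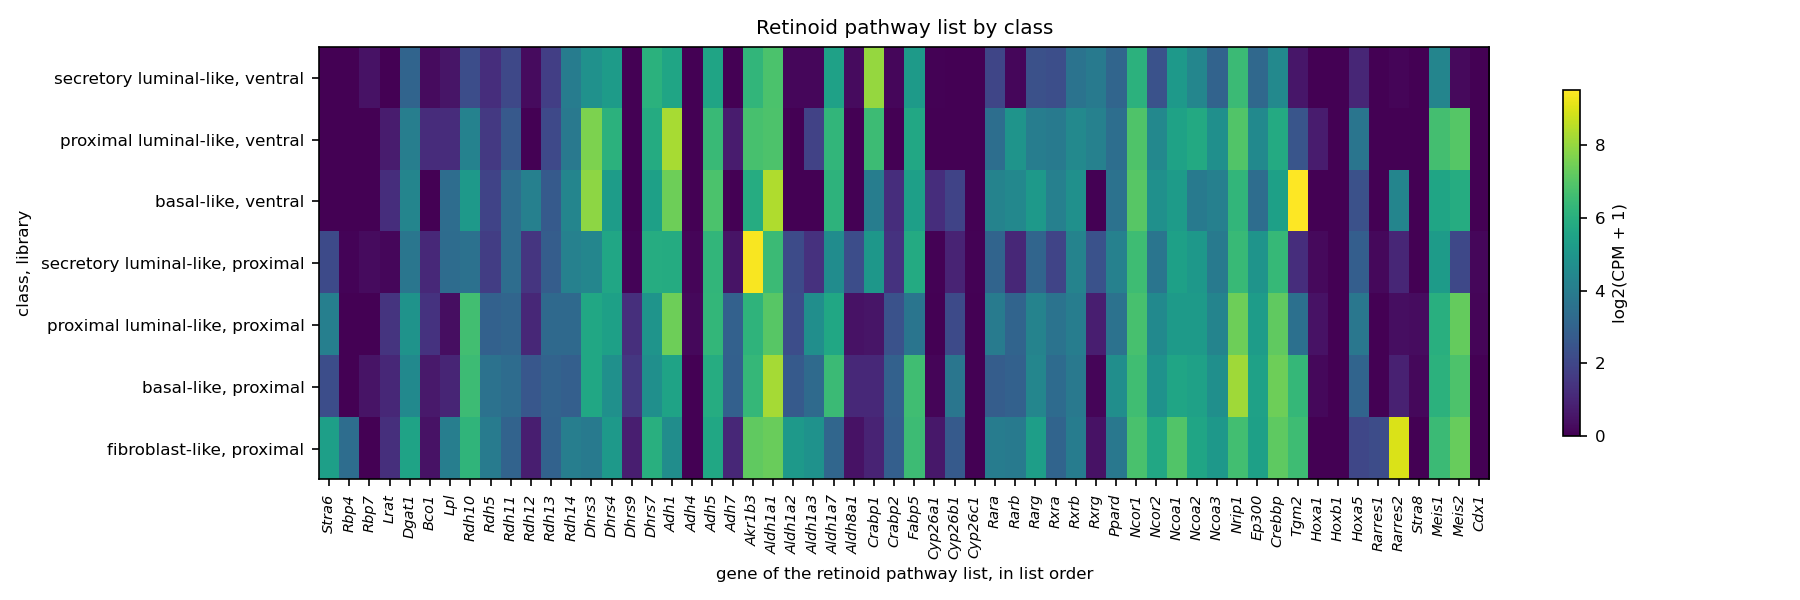
Level of retinoid pathway genes, members included (columns), as log2(CPM + 1), by colour, in 3 classes of the ventral and 4 classes of the proximal library (rows). Tgm2, Meis2 and Rdh10 were low in the secretory rows of both libraries, Crabp1 was highest in ventral secretory cells (258 CPM) and Rarres2 in fibroblast-like cells (497 CPM).

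Over the 31 clusters of at least 30 cells, the members that varied together most were Aldh1a3 and Rdh10 (Pearson r = 0.84 of log2(CPM + 10)), Rarb and Rarg (r = 0.81), and Rarg and Rdh10 (r = 0.80). Aldh1a1 had its highest correlation with Rarg, r = 0.49, and its lowest with Rara, r = -0.02. These clusters share 2 libraries and differ in depth, so the values describe these clusters, with no p. Among 11746 genes with at least 50 UMIs in 1 cluster, the 3 most like Aldh1a1 were Aldh1a7 (r = 0.78), Ghr and Kctd1. Those most like Rdh10 were Rnd3 (r = 0.97), Slit2 and Rbms3. Samd4 and Fbxl7 were among those most like Aldh1a3, and Cacna1d, Adcy7 and Kcng3 most like Aldh1a2. For Rarb they were Rhbdf1, Ror2 and Car12, for Rarg Ptk7, Gabbr1 and Sh3d21, for Rara Chrnb1, Gas2l1 and Plk3, and for Crabp2 Glce, Zcchc3 and Amy1. Of 16 repeats with rank correlation or with the proximal clusters alone, 11 gave mostly other genes, so these names depend on the measure and the clusters used.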

How the data were processed

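The unit of the deposited matrices is the raw count of UMIs, made by the authors with Cell Ranger 7.0.0 on mm10, per the submitters' processing notes. The gene annotation, intron setting and strand setting are not given in the sources used here. The 2221 ventral and 4344 proximal barcodes held 49356586 and 97817603 UMIs.

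Barcodes with fewer than 500 genes or over 10% mitochondrial UMIs were removed (226 and 635), as were 7 and 4 called doublets. Each library was clustered separately (scanpy 1.11.5, Python 3.11.15, 2000 variable genes without the pathway list, 30 components, 15 neighbours, Leiden resolution 1, seed 0). Clusters were named by their best-scoring marker list, given at least 3 of its genes in 25% of cells. A name was withheld where another list had more genes among the 10 leading ones. UMIs were summed per class and scaled to CPM. Intervals are exact at 95% (scipy 1.17.1), and a count of 0 allows up to 3 UMIs.

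All 8 members are named. Of the pathway list at most 6 genes per comparison are named, by size among those past 2-fold, and for each member the 3 most correlated genes, except for items that are not reported here, which still enter the counts. The members and lists were chosen with earlier results of these data known, and the marker scoring was set after clusters had been looked at. Tested on simulated data for proximal luminal-like over secretory luminal-like cells of the proximal library (13905 genes), ratios had the right sign for 100% of 100 genes changed 2-fold, and intervals held the truth for 93.0%. Alternatives covered cell filters, doublets, clustering, naming, scaling, free RNA, pseudocount, minimum UMIs, fold and thinning. Leaving out cells of over 5% Sbp and Spink1, and giving unnamed clusters their best class, were added after seeing the data.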

Additional observations from a re-analysis of the deposited data

How the results depend on the processing

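Directions held for most values: of the ratios of members recomputed under the alternatives, 1030 stayed within the counting error of the main value, 132 moved beyond it and 10 changed direction where the main interval lay on 1 side of a ratio of 1. In 48 more the sign changed where the main interval held 1. Changes of sign touched 14 of 85 ratios. Of the levels, 700 stayed within counting error and 84 moved. Of the shares of cells, 54 stayed and 114 moved, mostly with the depth of thinning. The log2 ratio of Rdh10 in proximal luminal-like over basal-like cells of the proximal library turned negative at -0.068 with up to 20% mitochondrial UMIs, -0.069 with at least 1000 genes, -0.17 with the highest doublet scores removed, -0.13 at Leiden resolution 2, -0.17 with random seed 1, -0.052 with libraries clustered together, -0.087 with cells named singly and -0.11 with unnamed clusters given their best class. The ventral log2 ratio of Rdh10, proximal luminal-like over basal-like, became 0.015 without cells of over 5% Sbp and Spink1. The log2 ratio of Rdh10 between libraries in proximal luminal-like cells became -0.56 with libraries clustered together, a setting that left 2 ventral proximal luminal-like and 1 ventral basal-like cell. The cause of the other changes was not tested.

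Counts of members past 2-fold between classes of a library moved as follows, and counts between libraries are left out here. In ventral proximal luminal-like over secretory cells, 2 members were higher; this became 0 with doublet scores removed or cells named singly, 1 at resolution 2, without 5 secretory and the mitochondrial genes or after subtraction of free RNA, and 4 without cells of over 5% Sbp and Spink1. For ventral basal-like over secretory cells, 4 became 1 with libraries clustered together and 2 without the secretory and mitochondrial genes, a scaling that lowered the median log2 ratio of all genes from 0.30 to -0.16. In ventral proximal luminal-like over basal-like cells, 1 lower became 0 with libraries clustered together, and 0 higher became 1 without cells of over 5% Sbp and Spink1. In proximal luminal-like over basal-like cells of the proximal library, 0 higher became 1 with doublet scores removed, at resolution 2 and with seed 1, as did 0 lower in fibroblast-like over basal-like cells. There, 2 higher became 1 with libraries clustered together. A pseudocount of 1 CPM gave, for proximal luminal-like over secretory cells, 4 higher for ventral and 5 for proximal tissue. It gave 6 in proximal basal-like over secretory, 2 in proximal luminal-like over basal-like and 2 in fibroblast-like over proximal luminal-like cells. At 4-fold, over secretory cells of the proximal library, the proximal luminal-like count became 1 and the basal-like count 1. The 7 other counts between classes of a library that changed became 0. Ventral Aldh1a2, Aldh1a3 and Crabp2 had 0 to 5 UMIs a class, which limits what can be read from them, and the cause of these low counts was not tested. No replicate could be left out with 1 library a group.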
